A study of Mus musculus with 6 samples.

Results

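The transcriptional output of nuclear YAP was examined through 10 genes that are widely used as direct targets of the YAP-TEAD complex. They were chosen by name as known genes of the pathway, at a time when earlier results of these data were known: Ctgf (also called Ccn2), Cyr61 (Ccn1), Ankrd1, Amotl2, Ajuba, Axl, F3, Crim1, Nt5e and Tgfb2. All 10 were found among the 35027 genes of the table, and all 10 had a mean of at least 10 estimated reads.

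YAP is a transcriptional coactivator without a DNA-binding domain of its own. When the Hippo kinases are inactive, YAP and its paralog TAZ (gene Wwtr1) enter the nucleus and bind TEAD factors, which recognize a short DNA motif in promoters and distant enhancers. The S127A substitution removes a site at which the Hippo kinase LATS restrains YAP, so the mutant protein stays nuclear.

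RNA-seq was performed on cells sorted for the red fluorescent protein Kate from thyroid tumors of mice of 2 genotypes, with 3 libraries each. In both, a Cre active in thyroid follicular cells turned on a Rosa26 allele encoding the dox-dependent activator rtTA and Kate, and rtTA drove a tetO transgene for YAP S127A. YAP mice carried this system alone, whereas BrafYAP mice also expressed Braf V600E, the activated kinase, from the endogenous locus through an LSL allele. Mice were given dox chow from 4 weeks of age, and about 20000 Kate-positive cells were collected per library. Cells from 3 tumors were combined in each YAP library, per the labels, while a BrafYAP library holds 1 tumor, so pooling and genotype cannot be told apart. The libraries are called YAP replicates 1, 2 and 3 and BrafYAP replicates 1, 2 and 6, after their labels. There is no group without the YAP transgene, so the comparison asks what Braf V600E adds to the targets of YAP, not how far YAP S127A raised them.

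Estimated depth was 26.3 to 37.6 M reads per library. The sorted cells expressed keratins and the thyroid factor Pax8 in all 6 libraries. BrafYAP replicate 6 was the lowest of the 6 libraries for 5229 of 16841 genes and YAP replicate 1 for 4487, against 1289 to 2636 for each of the other libraries. Genotype differences of named genes are given with and without BrafYAP replicate 6, the lowest library for every target gene. That library stands out in these same values, so fits without it are descriptions and their p-values no independent test. The 10 macrophage and leukocyte markers examined summed to 11736 to 40402 TPM per exonic length in YAP and to 3266 to 12485 in BrafYAP libraries, and 4 of 10 striated muscle markers had at most 3 reads in every library. The part of such RNA in the values given here was not tested. In bulk RNA, fewer cells of one type and less RNA per cell cannot be told apart.

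The promoters of the target genes were inspected first, because TEAD binding is what places these genes in one group. RefSeq promoter windows (250 bases before to 50 bases after the start site, build GRCm38.p6, the assembly called mm10) were given for 9 of the 10 genes, the exception being Ctgf. The TEAD core GGAATG, or CATTCC when read on the other strand, was found in 6 of these 9 windows, against 14.7% of all 32851 promoter windows of the same length. Counted per gene, the share was 16.6% of 27025 genes. Because the genes were chosen as known YAP-TEAD targets, their share is no independent support. The AP-1 motif TGANTCA, a palindrome searched on both strands, was found in 1 of 9 (F3), against 7.81% of all windows. Nt5e and Tgfb2 held neither. A match is a description of the letters in a window and was not measured as a bound site.

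The sequences shown are those with a TEAD core for the 5 genes that the results turn on. They run 5′ to 3′ on the strand of the gene, with the TEAD core in capitals. For Ajuba (chr14:54577662-54577911, minus strand), Cyr61 (chr3:145649986-145650235, minus strand) and Axl (chr7:25788734-25788983, minus strand) the whole 250 bases upstream of the RefSeq start site are shown, in which GENCODE M21 annotates 0 exons. For Ankrd1 (chr19:36120037-36120066 and chr19:36119950-36119979, minus strand) and Amotl2 (chr9:102717727-102717756, plus strand) only 30 bases around each core are given, since GENCODE M21 places them in an exon of a longer transcript of the same gene.
Ajuba: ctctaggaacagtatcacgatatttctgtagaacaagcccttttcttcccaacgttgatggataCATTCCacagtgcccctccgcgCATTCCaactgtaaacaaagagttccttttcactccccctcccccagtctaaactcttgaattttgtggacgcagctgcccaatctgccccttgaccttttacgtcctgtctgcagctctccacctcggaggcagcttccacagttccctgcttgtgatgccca
Cyr61: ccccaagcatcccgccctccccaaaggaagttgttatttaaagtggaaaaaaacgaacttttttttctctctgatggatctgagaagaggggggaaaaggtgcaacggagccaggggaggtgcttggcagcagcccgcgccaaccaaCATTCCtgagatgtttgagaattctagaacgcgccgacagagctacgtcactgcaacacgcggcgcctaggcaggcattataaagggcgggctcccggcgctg
Axl: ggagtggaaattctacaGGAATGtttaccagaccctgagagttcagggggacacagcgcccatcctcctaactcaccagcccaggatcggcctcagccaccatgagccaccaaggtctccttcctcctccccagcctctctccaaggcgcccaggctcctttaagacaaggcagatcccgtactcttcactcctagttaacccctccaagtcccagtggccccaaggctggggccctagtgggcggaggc
Ankrd1 distal: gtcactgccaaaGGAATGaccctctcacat
Ankrd1 proximal: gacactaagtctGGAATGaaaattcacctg
Amotl2: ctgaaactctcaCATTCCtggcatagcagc

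Ajuba held 2 cores, 186 and 164 bases before its start site, and Ankrd1 also held 2, at 210 and 123 bases. Amotl2, Crim1, Cyr61 and Axl held 1 each, at 65, 79, 103 and 233 bases. The 2 AP-1 motifs of F3 began 146 and 135 bases before its start site.

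**Figure D1:**
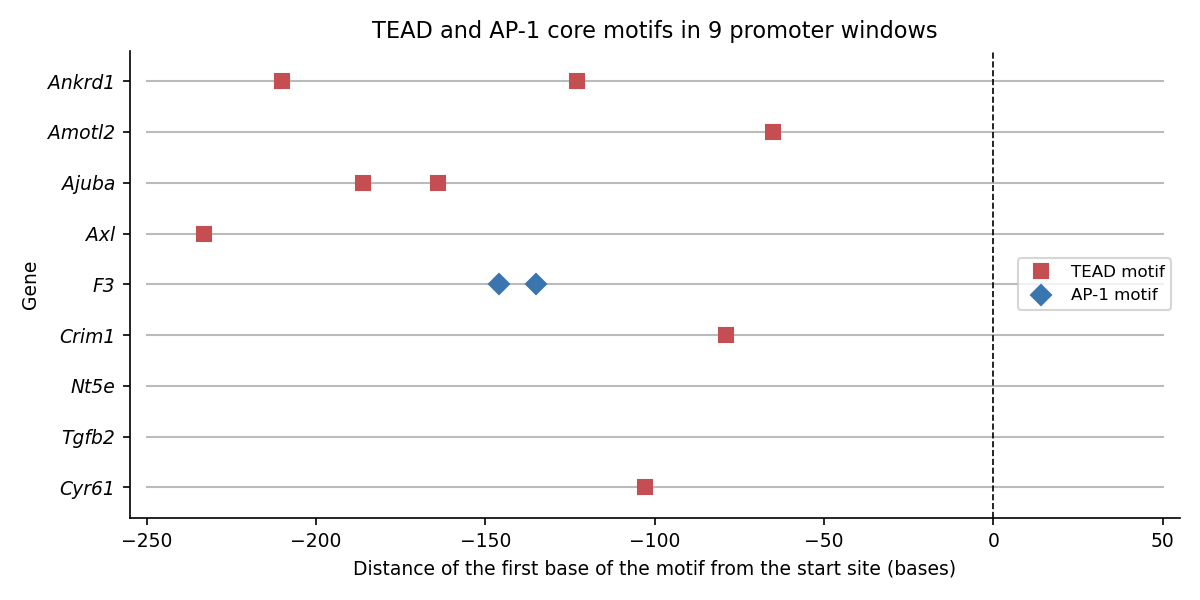
Motif matches in the promoter windows of 9 target genes, plotted as the distance in bases of the first motif base from the RefSeq start site (dashed line at 0). Squares mark the TEAD core and diamonds the AP-1 motif. All 8 TEAD matches lie upstream of the start site, in 6 genes, and F3 is the gene with AP-1 matches.

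To compare levels between genes, TPM were recalculated with exonic lengths. Ctgf and Cyr61, which encode secreted matricellular proteins of the CCN family, were the highest of the 10 genes in 6 of 6 libraries, with mean levels of 4043 and 3482 TPM per exonic length. Axl, a receptor tyrosine kinase gene, averaged 407, and Amotl2, whose product is an angiomotin that binds and restrains YAP, averaged 237. F3 (tissue factor, the initiator of coagulation) and Nt5e (CD73, which produces extracellular adenosine) were close to each other at 88.1 and 87.6 TPM per exonic length. Ajuba, encoding a LIM protein that inhibits LATS kinases, averaged 48.4, and Ankrd1, an ankyrin repeat protein gene, 21.2. Crim1, a transmembrane binder of BMPs, and Tgfb2, a TGFβ ligand, were lowest at 12.9 and 10.3. The ranges over the 6 libraries overlapped in all 9 neighbouring pairs of this order.

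The summed level of the 10 genes was 1750, 9180 and 4117 TPM per exonic length in YAP replicates 1, 2 and 3, and 14878, 19910 and 783 in BrafYAP replicates 1, 2 and 6. BrafYAP replicates 1 and 2 thus lay above every YAP library, and BrafYAP replicate 6 below every YAP library. Ctgf and Cyr61 made up most of this sum, 18709 of 19910 in BrafYAP replicate 2. The other 8 genes together were at 710, 1333 and 993 in YAP replicates 1, 2 and 3, and at 1099.9, 1200.2 and 136 in BrafYAP replicates 1, 2 and 6, so that without Ctgf and Cyr61 YAP replicate 2 was highest.

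**Figure D2:**
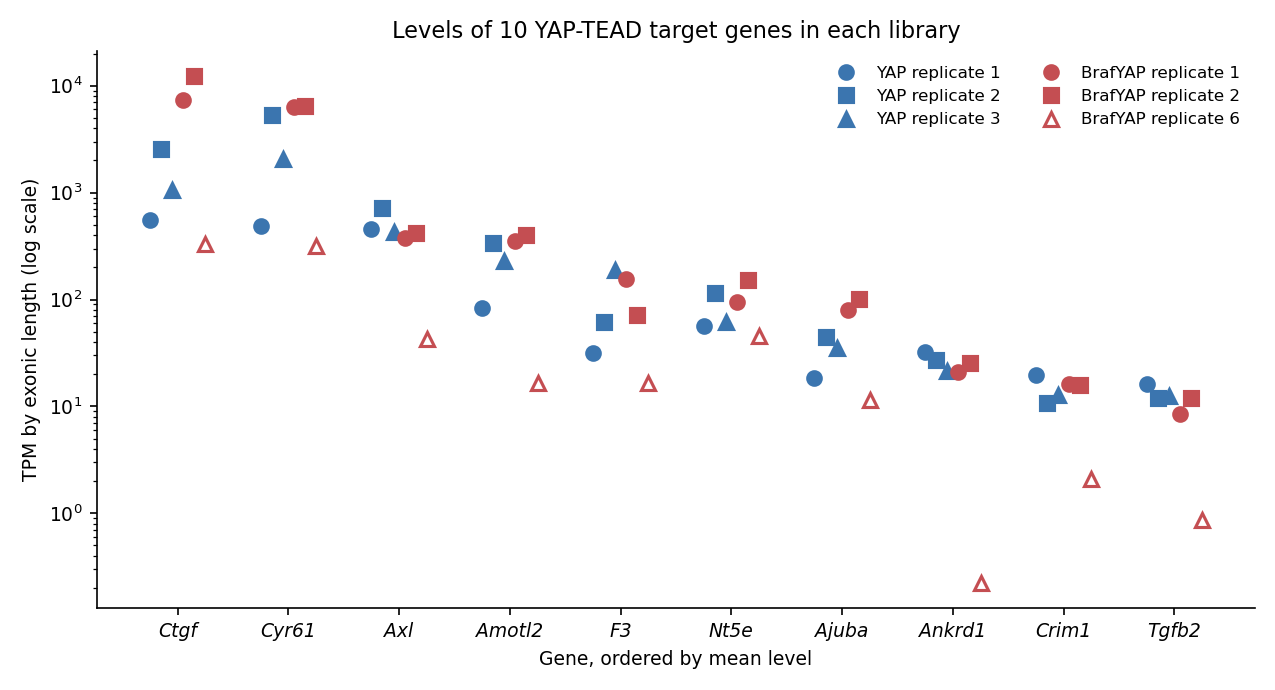
Level of each target gene in each of the 6 libraries, as TPM per exonic length on a log axis, with genes ordered by mean level. Blue marks YAP and red BrafYAP libraries, and the marker shape gives the replicate. BrafYAP replicate 6 (open triangle) is the lowest library for all 10 genes, and for Ctgf BrafYAP replicates 1 and 2 lie above the 3 YAP libraries.

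The values that follow are those of the deposited table, TPM that the authors divided by the genomic span of a gene (introns included), unless scaled reads are named. Ctgf (chromosome 10, 24595442 to 24598683, mm10) was at 189, 906 and 346 in YAP replicates 1, 2 and 3, and at 2476, 4028 and 110.3 in BrafYAP replicates 1, 2 and 6. The YAP libraries averaged 480 ± 376 (SD, n = 3) and the BrafYAP libraries 2205 ± 1973 (SD, n = 3). The groups overlapped through BrafYAP replicate 6 alone, which was below all YAP libraries, while the other BrafYAP libraries were above them all. Ctgf differed between the genotypes by 1.40 on the log2 scale (SE 1.34, limma adjusted p = 0.581). Without BrafYAP replicate 6 it was 3.01 (SE 0.67, limma adjusted p = 0.128, unadjusted p = 0.00377), with no overlap between the groups. The lncRNA gene Gm15270 overlaps Ctgf on the opposite strand, and the strand used in counting is not stated.

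Cyr61 (chromosome 3, 145646976 to 145649981) was at 126, 1430 and 506 in YAP replicates 1, 2 and 3, and at 1609, 1592 and 79.0 in BrafYAP replicates 1, 2 and 6. Its YAP libraries spanned 11.4-fold, the widest of the 10 genes. BrafYAP replicates 1 and 2 were less than 2-fold above the highest YAP library, and replicate 6 was below the lowest. The log2 fold change was 0.39 (SE 1.35, limma adjusted p = 0.897) in 6 libraries and 1.83 (SE 0.95, limma adjusted p = 0.360) without BrafYAP replicate 6, and without any 1 of YAP replicate 1, BrafYAP replicate 1 or BrafYAP replicate 2 it was below 0.

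Ajuba and Amotl2 encode regulators of the pathway itself, with opposing roles in the control of YAP. Ajuba (chromosome 14, 54567472 to 54577558) was at 2.58, 6.45 and 4.70 in YAP replicates 1, 2 and 3, and at 10.8, 13.6 and 1.55 in BrafYAP replicates 1, 2 and 6. It had the same order of libraries as Ctgf: BrafYAP replicates 1 and 2 above all YAP libraries and BrafYAP replicate 6 below. The genotypes differed by 0.51 on the log2 scale (SE 0.67, limma adjusted p = 0.692), and by 1.30 (SE 0.36, limma adjusted p = 0.159, unadjusted p = 0.0109) without BrafYAP replicate 6. Amotl2 (chromosome 9, 102716672 to 102733418) was at 12.0, 50.9 and 31.6 in YAP replicates 1, 2 and 3, and at 49.7, 56.2 and 2.34 in BrafYAP replicates 1, 2 and 6. YAP replicate 2 lay between BrafYAP replicates 1 and 2, so Amotl2 overlapped between genotypes also without BrafYAP replicate 6. Amotl2 differed by -0.40 on the log2 scale (SE 1.12, limma adjusted p = 0.869), which turned to 0.94 (SE 0.58, limma adjusted p = 0.430) without that library.

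Axl (chromosome 7, 25757273 to 25788705) and Tgfb2 (chromosome 1, 186622792 to 186705989), a receptor and a ligand, were lower in every BrafYAP than in every YAP library, by a margin that did not outlast median-ratio rescaling of the libraries, after which the groups of both overlapped. Axl was at 27.99, 46.7 and 25.3 in YAP replicates 1, 2 and 3, and at 22.6, 24.8 and 2.54 in BrafYAP replicates 1, 2 and 6. The gap between YAP replicate 3 and BrafYAP replicate 2 was small. For Axl the difference was -1.36 on the log2 scale (SE 0.76, limma adjusted p = 0.364), and -0.43 (SE 0.34, limma adjusted p = 0.537) without BrafYAP replicate 6. Tgfb2 was compared on scaled reads, estimated reads at the authors' scaling between libraries, because its long introns keep its deposited values under 1. It had 1101, 839 and 793 scaled reads in YAP replicates 1, 2 and 3, and 557, 773 and 56.8 in BrafYAP replicates 1, 2 and 6. YAP replicate 3 and BrafYAP replicate 2 were again the nearest pair, and rescaling put them at 736 and 782. On that scale the difference was -1.63 (SE 0.92, limma adjusted p = 0.357), and -0.46 (SE 0.32, limma adjusted p = 0.439) without BrafYAP replicate 6.

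Ankrd1 (chromosome 19, 36111961 to 36120099) was the gene in which BrafYAP replicate 6 departed furthest. It was at 4.40, 3.85 and 2.80 in YAP replicates 1, 2 and 3, and at 2.80, 3.31 and 0.0300 in BrafYAP replicates 1, 2 and 6. The last value corresponds to about 8.26 estimated reads, against 620 to 1050 in the other 5 libraries. Those 5 libraries lay within 1.57-fold of each other in deposited value, the narrowest spread of the 10 genes without BrafYAP replicate 6, where Ctgf spanned 21.3-fold. Ankrd1 differed between genotypes by -0.85 (SE 0.54, limma adjusted p = 0.413) on log2(value + 1), -2.41 (SE 1.64, limma adjusted p = 0.434) on log2(scaled reads + 1), and -0.20 (SE 0.25, limma adjusted p = 0.702) on log2(value + 1) without BrafYAP replicate 6.

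F3, Nt5e and Crim1 gave no separation of the genotypes. F3 (chromosome 3, 121723537 to 121735048) was at 2.68, 5.45 and 15.3 in YAP replicates 1, 2 and 3, and at 13.0, 5.82 and 1.37 in BrafYAP replicates 1, 2 and 6. It was the 1 gene highest in YAP replicate 3, and differed by -0.26 on the log2 scale (SE 0.76, limma adjusted p = 0.875). Leaving out BrafYAP replicate 6 turned this to 0.42. Nt5e (chromosome 9, 88327197 to 88372092) was at 4.18, 8.82 and 4.37 in YAP replicates 1, 2 and 3, and at 6.81, 10.9 and 3.26 in BrafYAP replicates 1, 2 and 6, the mildest drop in BrafYAP replicate 6 of the 10 genes. The difference was 0.18 on the log2 scale (SE 0.44, limma adjusted p = 0.848) and 0.57 when that library was left out. Crim1 (chromosome 17, 78200248 to 78376592) had 1378, 786 and 847 scaled reads in YAP replicates 1, 2 and 3, and 1110, 1057 and 142 in BrafYAP replicates 1, 2 and 6. The log2 difference on that scale was -0.82 (SE 0.79, limma adjusted p = 0.581), and 0.16 once BrafYAP replicate 6 was left out. Fez2 overlaps Crim1 on the opposite strand and had 459 to 6824 estimated reads.

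Across the list, 0 of the 8 genes tested on deposited values passed the threshold (limma adjusted p under 0.05), where 18 of all 7319 genes tested did (0.246%), and 0 of 8 had an unadjusted p under 0.05 (19.9% of all genes). Of the 8 genes, 4 were higher (44.7% of all genes) and 4 lower in BrafYAP, with a median log2 fold change of -0.04 against -0.06 for all genes tested. The groups did not overlap for 1 of 8 genes, Axl, where 28.2% of all genes did not overlap. On scaled reads, 0 of 10 genes passed at the adjusted threshold (0% of 16841 genes) and 0 of 10 at the unadjusted one (20.2%), 2 of 10 did not overlap (28.7% of all genes), and the median was -0.44 against -0.12.

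Without BrafYAP replicate 6, 6 of 8 genes were higher in BrafYAP on deposited values (45.3% of all genes), with a median log2 fold change of 0.76 against -0.05 for all genes tested, and 0 of 8 passed the adjusted threshold (0.276% of all genes). Ctgf and Ajuba, 2 of 8, had an unadjusted p under 0.05 (18.5% of all genes). Ctgf, Ajuba and Cyr61 lay higher in BrafYAP with no overlap, 3 of 8 (19.1% of all genes), and Axl lower, 1 of 8 (22.2%). On scaled reads without that library, Ctgf differed by 3.02 on the log2 scale (SE 0.65, limma adjusted p = 0.0847), and 0 of 10 genes passed where 0.856% of all genes did. These values rest on 2 BrafYAP libraries against 3 YAP libraries. Leaving out the library that is lowest for every target gene raises each of their fold changes by construction. Leaving out 1 of the other libraries gave medians of -0.64 (without YAP replicate 1) to 0.26 (without YAP replicate 2) on deposited values, with 2 to 5 of 8 genes higher in BrafYAP. On scaled reads those fits gave -1.16 (without BrafYAP replicate 1) to -0.18 (without YAP replicate 3), with 1 to 5 of 10 higher. On deposited values the sign of the median thus differed with the library left out. On scaled reads it turned only without BrafYAP replicate 6, with a median of 0.59. In that fit 7 of 10 genes were higher in BrafYAP (7428 of all 16597 genes).

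**Figure D3:**
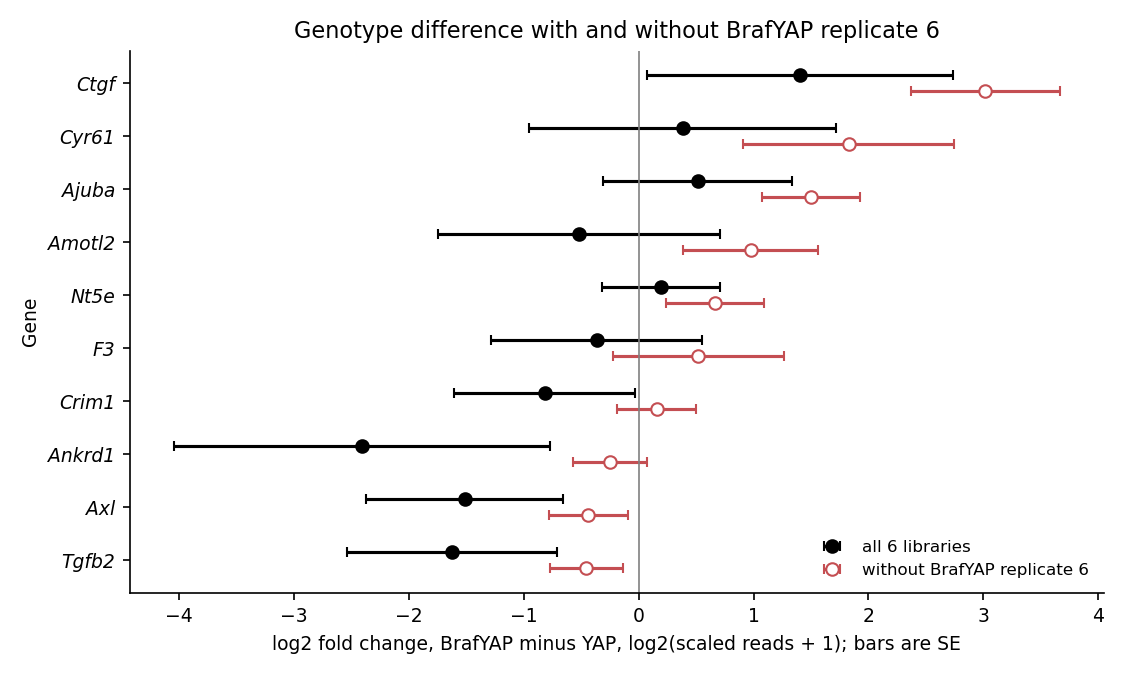
Log2 fold change of each target gene, BrafYAP minus YAP, on log2(scaled reads + 1), with all 6 libraries (filled) and without BrafYAP replicate 6 (open). Bars are the standard error of the limma fit. Because BrafYAP replicate 6 is the lowest library for all 10 genes, each open point must lie to the right of its filled point. Ctgf lies furthest right at 3.02, and Tgfb2, Axl and Ankrd1 lie left of 0 in both fits.

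BrafYAP replicate 6 was then set against the other BrafYAP libraries gene by gene. It was the lowest of the 6 libraries for 10 of 10 target genes, where it was lowest for 5229 of all 16841 genes, and for 10 of 10 after median-ratio rescaling (26.8% of all genes, where YAP replicate 1 was lowest for 27.6%). All 10 were over 2-fold below the mean of BrafYAP replicates 1 and 2 on log2(scaled reads + 1), against 19.4% of all genes. The median difference was -3.36 for the 10 genes and -0.11 for all genes. On deposited values, the mean of BrafYAP replicates 1 and 2 was 102-fold that of replicate 6 for Ankrd1, 29.5-fold for Ctgf, 22.6-fold for Amotl2 and 20.3-fold for Cyr61, and it was 11.7-fold for Tgfb2 and 2.71-fold for Nt5e, the lowest of the 10. These comparisons set 1 library against 2 and have no replicate check.

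In the same library, other gene groups moved with the targets, apart from them or in both directions. The genes of YAP, TAZ and the TEAD factors were lowest in BrafYAP replicate 6 for 5 of 6. SRF targets, cytoskeletal genes of the actin-MRTF pathway, were lowest there for 11 of 12, where 5229 of all 16841 genes were. Over 2-fold below BrafYAP replicates 1 and 2 were 4 of 6 and 8 of 12, against 19.4% of all genes. Yap1 had 783, 781 and 907 scaled reads in YAP replicates 1, 2 and 3, and 1368, 1465 and 264 in BrafYAP replicates 1, 2 and 6, with no separation of the transgene from the endogenous gene. Immediate-early genes, in contrast, went both ways from BrafYAP replicates 1 and 2. Jun differed by 1.45, Fos by -0.03 and Ier3 by -2.996. Of the 16 genes, 3 were over 2-fold below (19.4% of all genes) and 2 over 2-fold above. Their median difference was 0.37. Thyroid follicular cell markers had one of 4.42, with 10 of 12 over 2-fold above. The median for all genes was -0.11, and their share over 2-fold above was not counted. Estimated reads of Tg, the thyroglobulin gene, were 116 and 66.0 in BrafYAP replicates 1 and 2, 22121 in BrafYAP replicate 6, and 6476, 1046 and 16189 in YAP replicates 1, 2 and 3. After BrafYAP replicate 6, Tg was next highest in YAP replicate 3. Summed endothelial markers reached 52.5 TPM per exonic length in BrafYAP replicate 6 (2.55 to 33.5 in the other libraries), and the part of any of these groups in the low target levels was not tested.

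**Figure D4:**
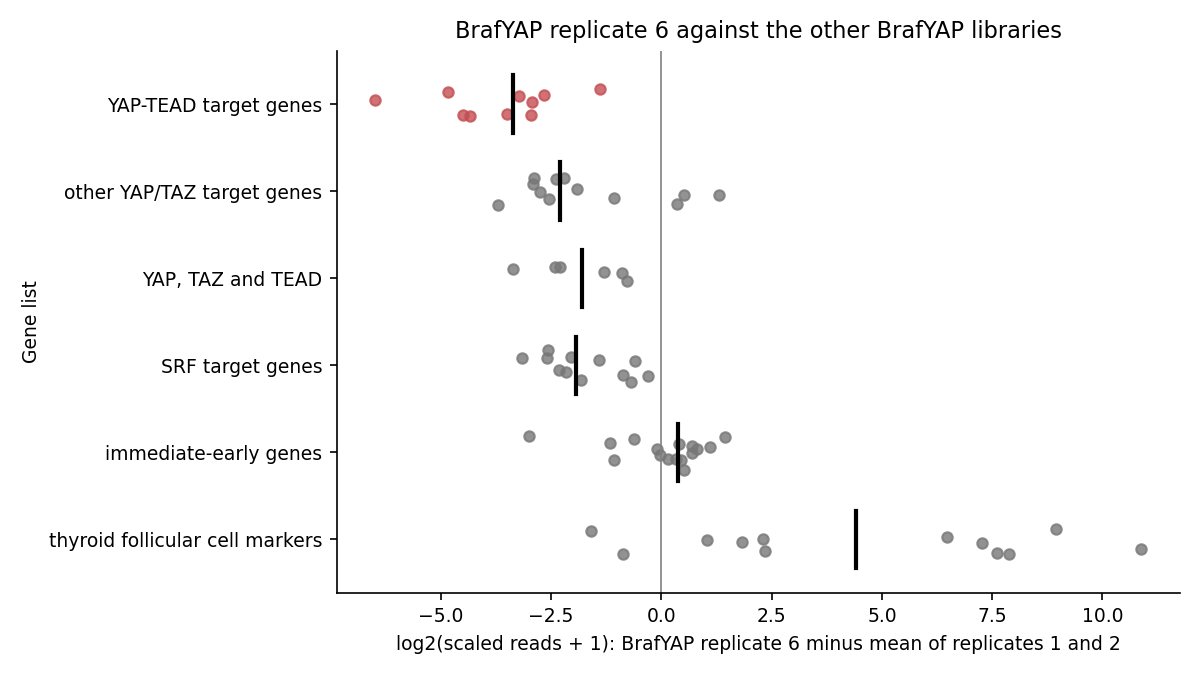
Difference between BrafYAP replicate 6 and the mean of BrafYAP replicates 1 and 2 on log2(scaled reads + 1), 1 point per gene with a mean of at least 10 reads, by gene list. Vertical bars are list medians: -3.36 for the 10 target genes (red), -2.30 for other YAP/TAZ targets, -1.81 for YAP, TAZ and TEAD genes, -1.93 for SRF targets, 0.37 for immediate-early genes and 4.42 for thyroid markers.

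Expression of the upstream factors was compared between genotypes on scaled reads. Wwtr1, encoding TAZ, was at 945, 2777 and 1235 in YAP replicates 1, 2 and 3, and at 3955, 5496 and 2501 in BrafYAP replicates 1, 2 and 6, so that BrafYAP replicate 6 was below YAP replicate 2 and the other BrafYAP libraries above it. Wwtr1 differed by 1.36 on the log2 scale (SE 0.49, unadjusted p = 0.0259, limma adjusted p = 0.189), and by 1.65 (SE 0.49, limma adjusted p = 0.143) without BrafYAP replicate 6. Yap1 differed by -0.02 (SE 0.65, limma adjusted p = 0.987), and by 0.78 (SE 0.27, limma adjusted p = 0.179) without BrafYAP replicate 6. Without BrafYAP replicate 6, Yap1 lay higher in BrafYAP with no overlap, as did 3153 of all 16597 genes. Among the TEAD genes, Tead4 differed by 0.41 (SE 0.95, limma adjusted p = 0.832) and by 1.53 (SE 0.50, limma adjusted p = 0.164) without that library. Tead1, Tead2 and Tead3 differed by -0.66, -0.03 and -0.10, and by -0.23, 0.74 and 0.16 without BrafYAP replicate 6, so that Tead2 and Tead3 turned.

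A further 13 genes of published YAP/TAZ signatures, chosen by name as other genes of the pathway, were examined in the same way. Of these, 12 had a mean of at least 10 reads, Foxf2 falling below, and 4 were tested on deposited values, with 0 past the adjusted threshold and 1 with an unadjusted p under 0.05. On scaled reads 2 of 12 had an unadjusted p under 0.05, 1 in each direction, which is no larger a share than the 20.2% of all genes, and 0 passed after adjustment. The groups did not overlap for 2 of 12, again 1 in each direction, where 28.7% of all genes did not overlap. Gadd45a, a DNA damage and stress response gene, had 99.4, 821 and 421 scaled reads in YAP replicates 1, 2 and 3, and 1800, 2487 and 2725 in BrafYAP replicates 1, 2 and 6. It was higher in every BrafYAP than in every YAP library, BrafYAP replicate 6 included, by 2.49 on log2(value + 1) (SE 0.58, limma adjusted p = 0.0953), and by 2.38 (SE 0.67, limma adjusted p = 0.162) without BrafYAP replicate 6. It passed the threshold only without YAP replicate 2 on deposited values (3.03, limma adjusted p = 0.0361), a fit in which 465 of all genes passed, while the adjusted p of its other alternatives was 0.0554 to 0.282. Rbms3, an RNA-binding protein gene, had 2258, 1625 and 1201 scaled reads in YAP replicates 1, 2 and 3, and 424, 702 and 783 in BrafYAP replicates 1, 2 and 6. It was lower in every BrafYAP library (log2 fold change on scaled reads -1.41, SE 0.37, limma adjusted p = 0.117, and -1.59 without BrafYAP replicate 6).

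Beyond these, the highest fold changes on scaled reads were 1.37 for Igfbp3 (SE 0.85) and 0.99 for Nuak2 (SE 0.79), and the lowest -1.61 for Ccdc80 (SE 0.82) and -1.10 for Ptpn14 (SE 0.76). Without BrafYAP replicate 6 these were 0.93, 1.63, -0.65 and -0.14. BrafYAP replicate 6 was the lowest library for 8 of the 12 genes (5229 of all 16841), and 9 of 12 were over 2-fold below BrafYAP replicates 1 and 2 (19.4% of all genes). Igfbp3, a binder of insulin-like growth factors, was 1 of the exceptions, with 64.3 and 70.6 scaled reads in BrafYAP replicates 1 and 2 and 168 in replicate 6.

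The genes whose pattern over the 6 libraries was most like the mean pattern of the 10 targets were Nrg1, Fermt1, Marveld1, Podnl1 and Fxr2, with Pearson's r of 0.999, 0.997, 0.994, 0.992 and 0.992. Likeness was measured on log2(scaled reads + 1) against the mean z-score of the target genes, among 10921 genes, of which 348 had r above 0.9. All points share the same 6 libraries, which is few for a ranking of genes. BrafYAP replicate 6 had a mean z-score of -1.65 and the other libraries -0.23 to 0.69. Nrg1, which encodes the ERBB ligand neuregulin 1, had 1171, 2810 and 1870 scaled reads in YAP replicates 1, 2 and 3, and 3532, 3988 and 137 in BrafYAP replicates 1, 2 and 6. Fermt1, encoding the integrin activator kindlin-1, had 1623, 3477 and 3010 in YAP replicates 1, 2 and 3, and 4547, 5521 and 288 in BrafYAP replicates 1, 2 and 6.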

How the data were processed

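Total RNA of Kate-positive cells was amplified with SMART-Seq v4 and sequenced in 6 libraries (3 YAP, 3 BrafYAP), which were grouped by GEO's titles. Reads were aligned by the authors with STAR 2.6.1d (mm10), quantified in Partek on Ensembl release 95, and deposited as 1 table of TPM with 0.0001 added. Its columns sum to 181217.6. Low values multiplied by the genomic span of a gene (GENCODE M21) were whole multiples of one step (within 0.05) for 71.7 to 76.1% of values, against 22.4 to 25.1% with the exonic length. The divisor of the deposited TPM was therefore the span, which lowers the values of genes with long introns. Estimated reads, computed for the 34658 genes found at one locus, are (value - 0.0001) × span / step. Because only part of the values came out whole, no count model was run. Scaled reads keep the authors' scaling between libraries. PCR duplicates carry no molecular identifier.

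Genotypes were compared with limma 3.58.1 under R 4.3.3, using lmFit and a trended eBayes. Values entered as log2(value + 1), a mean value of 1 or more was required, and two-sided p-values were adjusted by Benjamini-Hochberg over every gene tested, with a threshold of 0.05. Crim1, Tgfb2 and other genes below that mean were fitted as log2(scaled reads + 1), where a mean of 10 reads or more was required. The scale understates changes of low genes. The labels give no batch and the libraries of a group are separate tumors or pools, so p-values measure the spread between these libraries. An exact permutation test of 3 libraries against 3 cannot go below 0.1 and was not used.

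The 10 genes and all other lists were chosen with earlier results of these data known, so no list was tested, and lists are described beside all genes. The genes named are the 10 targets, Yap1, Wwtr1, the TEAD genes, other YAP/TAZ targets with an unadjusted p under 0.05 and the 2 highest and 2 lowest beyond them, and the 5 genes most like the targets over the libraries (mean of at least 100 scaled reads). Marker genes were named after their values were seen, and 1 item is not reported here. Alternatives were other pseudocounts, filters, lengths and normalizations, no trend, a replicate block and each library left out in turn. Leaving out each library on scaled reads was added after seeing the data. The paper's methods describe 1 tumor from each mouse per replicate and its results a later start of dox, and the labels were followed.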

Additional observations from a re-analysis of the deposited data

How the results depend on the processing

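No target gene passed the threshold under any alternative. The number of all genes past it was 18 as reported, 1 with median-ratio rescaling, without a trend or with a pseudocount of 0.1, 3 with a minimum mean of 10, 0 with a pseudocount of 0.0001, with no filter or with the length division undone, 63 with the exonic length and 79 with quantile normalization. Leaving out 1 library gave 0 to 465 genes (465 without YAP replicate 2), and on scaled reads 0 to 142 (142 without BrafYAP replicate 6). Median-ratio rescaling moved the median log2 fold change of all genes from -0.06 to 0.07 and that of the target genes from -0.04 to 0.09. The median of the other YAP/TAZ targets was 0.23 over 4 genes, 1.67 with a minimum mean of 10 (2 genes left), and between -1.15 and 0.68 across the fits that left out 1 library (-1.08 without BrafYAP replicate 1 and -1.15 without BrafYAP replicate 2, both on scaled reads with 12 genes). Unless the genes or samples left are named, the cause was not tested.

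The replicate numbers 1 and 2 occur in both groups, and the labels give no pairing. Deviations of same-numbered libraries from their group means correlated at -0.05 and 0.06, which with so few libraries cannot exclude a pairing. With the replicate block, which leaves YAP replicate 3 and BrafYAP replicate 6 out of the contrast, 0 genes passed, the median of the target genes was 1.03, Ctgf differed by 2.93 (limma adjusted p = 0.259), and Amotl2 and F3 turned to 1.05 and 1.00.

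Directions that turned when 1 library was left out on either scale were those of Amotl2 (-1.32 to 0.98), F3 (-1.10 to 0.52), Cyr61 (-0.54 to 1.83), Ajuba (-0.064 to 1.50), Nt5e (-0.21 to 0.66), Crim1 (-1.32 to 0.16), Lats2 (-1.21 to 0.74), Arhgef17 (-1.25 to 0.10), Yap1 (-0.45 to 0.78), Tead2 (-0.58 to 0.74), Tead3 (-0.35 to 0.16) and Tead4 (-0.18 to 1.53). Ctgf, Axl, Ankrd1, Tgfb2, Gadd45a, Rbms3 and Wwtr1 kept their direction in all these fits. Ankrd1 rested on about 8.26 estimated reads in BrafYAP replicate 6.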

Other observations

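Immediate-early genes, transcripts that rise within minutes of a stimulus, did not share one order of libraries. Of 16 such genes, 7 were lowest in YAP replicate 3 (1289 of all 16841 genes) and 5 in YAP replicate 1 (4487 of all 16841). BrafYAP replicate 6 was highest for 5 of the 16, and its share over all genes was not counted. No test was run on these 16 genes. Junb was at 41.6, 1871 and 335 TPM per exonic length in YAP replicates 1, 2 and 3, and at 2258, 2185 and 3018 in BrafYAP replicates 1, 2 and 6. Ier2 was at 16.7, 432 and 98.9 in YAP replicates 1, 2 and 3, and at 596, 782 and 968 in BrafYAP replicates 1, 2 and 6. Junb and Ier2 were lowest in YAP replicate 1 and highest in BrafYAP replicate 6, the library in which Ctgf and Cyr61 were lowest. Among SRF targets, Acta2, the smooth muscle actin gene, was at 808, 713 and 428 TPM per exonic length in YAP replicates 1, 2 and 3, and at 146, 186 and 27.1 in BrafYAP replicates 1, 2 and 6. Tpm1, a tropomyosin gene, was at 834 to 1138 in YAP libraries, at 1132 and 1277 in BrafYAP replicates 1 and 2, and at 203 in BrafYAP replicate 6. These genes were chosen after their values were seen.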
